A study of Mus musculus with 26 samples.

Results

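Tnnt1 and Abhd12b are 2 of the 36589 genes counted in single thalamic neurons of the mouse, and both are used as markers of core, or relay, neurons of the thalamus. They were chosen by name, with their levels in these neurons already known, so their levels across cortical target systems and clusters are given as a description without a test. The neurons had been labelled from 1 of 5 cortical systems with an agent that travels from the axon back to the cell body, then picked by hand from slices kept in blockers of activity. Transcripts were counted by unique molecular identifiers (UMIs), tags that let copies of 1 captured molecule be counted once. Levels are CPM, UMIs as a proportion of all gene UMIs, in 21 sums that each pool the cells of 1 animal and system.

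Tnnt1 encodes the slow skeletal form of troponin T, the troponin subunit that binds tropomyosin on the thin filament of striated muscle. It is also transcribed in relay neurons of the thalamus, where no sarcomere exists. Abhd12b encodes an alpha/beta-hydrolase fold protein and is a paralog of Abhd12, a lipase of lysophosphatidylserine. Relay neurons of the core send dense, ordered axons to the middle layers of sensory cortex, whereas matrix, midline and intralaminar neurons spread their axons more widely.

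In GRCm38 (mm10) both genes are annotated as protein coding and neither overlaps another gene. Tnnt1 (ENSMUSG00000064179) lies at chr7:4504570-4516382 on the minus strand, and Abhd12b (ENSMUSG00000090121) at chr12:70154142-70183887 on the plus strand. The promoter windows are shown because both genes were high in the same neurons in part of the data and apart in the rest. They run from 250 bases before to 50 bases after a start of transcription of each gene. They are RefSeq sequences of GRCm38.p6, at chr7:4515926-4516225 (minus strand) and chr12:70153881-70154180 (plus strand). The Tnnt1 window lies wholly within the gene range given above, which reaches 4516382, so its start is not the outermost annotated one. Motif positions count from the start used for each window. Capitals mark matches, on either strand, to the motifs searched.
Tnnt1 promoter: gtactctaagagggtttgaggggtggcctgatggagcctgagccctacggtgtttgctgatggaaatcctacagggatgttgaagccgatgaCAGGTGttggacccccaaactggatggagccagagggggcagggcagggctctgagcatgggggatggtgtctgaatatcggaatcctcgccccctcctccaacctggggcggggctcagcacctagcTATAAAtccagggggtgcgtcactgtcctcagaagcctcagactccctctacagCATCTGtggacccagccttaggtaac
Abhd12b promoter: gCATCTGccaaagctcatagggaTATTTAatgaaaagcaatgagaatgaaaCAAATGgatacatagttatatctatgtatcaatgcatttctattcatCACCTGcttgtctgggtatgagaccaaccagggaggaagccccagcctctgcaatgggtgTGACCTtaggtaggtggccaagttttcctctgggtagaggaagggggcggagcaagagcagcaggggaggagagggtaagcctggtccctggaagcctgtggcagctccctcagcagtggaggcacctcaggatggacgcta
The Tnnt1 window held the TATA box TATAAA at position -30, which 13.6% of 32851 promoter windows hold, and the E-box CANNTG at positions -158 and 25. The Abhd12b window held no TATAAA. It held the nuclear receptor motif AGGTCA, on the opposite strand, at position -92, which 16.3% of windows hold. It also held CANNTG at positions -249, -199 and -152, and TATTTA at position -227. CANNTG is present in 72.3% of windows and TATTTA in 13.7%. CTTTGA, the core of TCF and LEF sites, and the homeodomain core TAATTA and CTATTT were in neither window, against 16.003%, 5.29% and 12.1% of all windows. The G and C content was 58.3% for Tnnt1 and 51.0% for Abhd12b, with a median of 52.7% over all windows.

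The sums comprised 5 auditory (380 cells), 5 motor (484 cells), 4 prefrontal (388 cells), 3 somatosensory (285 cells) and 4 visual sums (435 cells). All cells came from males with ages of 64 to 112 in a table that gives no unit; for 1 animal identifier the age differed by 21 between sorts 21 days apart, so the ages are read as days. The sources used here do not give the strain, the label or the thalamic nuclei, and no group carried a stated allele or drug beyond the slice blockers. Between 64 and 170 cells made a sum, and the median cell had 87292 UMIs (20509 to 683775). Markers of thalamic glutamate neurons (at least 3 of Slc17a6, Tcf7l2, Snap25 and Rbfox3) were detected in all 1972 cells. Cortical glutamate, GABA and habenula neuron lists and the endothelial and mural list reached 3 detected markers in 0 cells. Oligodendrocyte, astrocyte and microglia lists reached 3 in 48, 11 and 2 cells. Oligodendrocyte markers summed to 12.5 to 393 CPM over the sums. The authors' cell table flags 20 cells, and all 20 held at least 3 oligodendrocyte markers. The skeletal and smooth muscle list reached 3 of 10 markers in 4 cells, and 8 of its 10 markers were in under 5% of cells. Its summed level of 135 to 569 CPM was highest in visual sums (471 to 569 CPM), but came mostly from 1 gene, Ckm. Ckm was detected in 52.7% of cells and held 125 to 557 CPM over the sums (461 to 557 CPM in visual sums). No other marker of this list exceeded 14.03 CPM in any sum, the highest value of Myh7. The part of muscle in the Tnnt1 level was not tested. All somatosensory sums were from sequencing batch 2 and all visual sums from batch 3, so system and batch cannot be told apart for them.

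Tnnt1 was present in every system and lowest in prefrontal sums. It had 355, 500.4 and 369 CPM in the 3 somatosensory sums and 416, 279.6, 313 and 492 CPM in the 4 visual sums. Auditory sums held 163, 298, 292, 393 and 182 CPM of Tnnt1. These 3 systems overlapped, with means of 408 ± 80.4, 375 ± 97.0 and 266 ± 94.0 CPM (SD, n = 3, 4 and 5). Motor sums held 50.02, 36.1, 282, 171 and 119 CPM of Tnnt1. Prefrontal sums held 11.96, 65.4, 221 and 52.6 CPM. Motor and prefrontal sums overlapped widely, with means of 132 ± 100.3 CPM (SD, n = 5) and 87.8 ± 91.9 CPM (SD, n = 4), and in each system 1 sum of batch 2 was the highest. In the order somatosensory, visual, auditory, motor, prefrontal, each neighbouring pair of systems overlapped in range.

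Abhd12b had another order, with auditory and visual sums at the bottom. Somatosensory sums held 574, 535 and 461 CPM. Motor sums held 235, 177, 472, 252 and 251 CPM, and only the third overlapped the somatosensory range. Prefrontal sums held 37.7, 61.6, 263 and 79.6 CPM of Abhd12b. Auditory sums held 10.3, 16.9, 67.6, 117 and 9.50 CPM, and visual sums 19.1, 50.2, 23.5 and 42.9 CPM. Every motor sum was thus above every visual and auditory sum. The means were 523 ± 57.4 (n = 3), 277 ± 113 (n = 5), 111 ± 103 (n = 4), 44.2 ± 47.1 (n = 5) and 34.0 ± 15.0 CPM (SD, n = 4) in somatosensory, motor, prefrontal, auditory and visual sums, and neighbours in this order again overlapped.

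The pair therefore separated visual and auditory sums from motor and somatosensory sums. For each Tnnt1 UMI there were 2.97 ± 1.69 Abhd12b UMIs in motor sums (SD, n = 5), 1.70 ± 0.995 in prefrontal sums (n = 4) and 1.31 ± 0.280 in somatosensory sums (n = 3). The ratio was 0.140 ± 0.116 in auditory sums (n = 5) and 0.0970 ± 0.0577 in visual sums (n = 4). Its highest auditory value, 0.297, lay below the lowest prefrontal value of 0.942. No source used here gives the counting rule, so the ratio is used to compare systems and not the absolute levels of the genes.

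**Figure D1:**
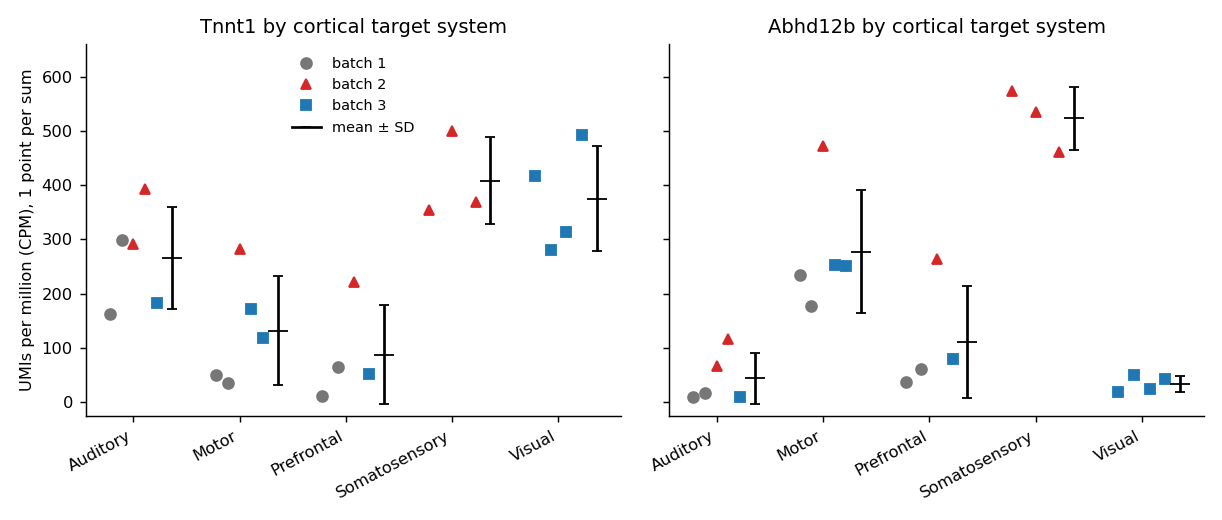
Tnnt1 (left) and Abhd12b (right) in CPM for each of the 21 sums by cortical target system; marker shape and colour give the sequencing batch, and bars the mean and SD over sums. Visual sums reach 492 CPM of Tnnt1 and at most 50.2 CPM of Abhd12b, and in auditory, motor and prefrontal neurons the batch 2 sums (triangles) hold the highest Abhd12b values.

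Fitted with batch in the model, edgeR's quasi-likelihood fit gave log2 fold changes for every system relative to the other 4 averaged. For Tnnt1 they were 1.39 ± 0.46 (SE) in visual, 0.63 ± 0.33 in auditory, 0.32 ± 0.46 in somatosensory, -0.76 ± 0.33 in motor and -1.58 ± 0.38 in prefrontal neurons. For Abhd12b they were 2.22 ± 0.23 in motor, 1.34 ± 0.35 in somatosensory, 0.02 ± 0.25 in prefrontal, -1.23 ± 0.35 in visual and -2.35 ± 0.28 in auditory neurons. These fitted values had opposite signs in visual, auditory and motor neurons, and in prefrontal neurons the Tnnt1 value was negative while that of Abhd12b was near 0. Within a single batch, each system was instead set against only the other systems of that batch. These were not the same throughout, since somatosensory sums were only in batch 2 and visual sums only in batch 3. Within batches 1, 2 and 3 alone the Abhd12b value was 3.02, 1.04 and 3.12 in motor neurons and -2.92, -2.19 and -3.23 in auditory neurons. The Tnnt1 value within the same batches was 2.46, 0.15 and 0.34 in auditory neurons and -1.11, -0.13 and -0.057 in motor neurons, so that in batches 2 and 3 it was near 0 in motor neurons. With spike-in totals in place of gene totals, the Tnnt1 value of auditory neurons became -0.057, while the median of all genes became -0.70, so that relative to that median it was 0.65. Between motor and prefrontal neurons, which both have sums in all 3 batches, the log2 difference was 0.65 ± 0.42 for Tnnt1 and 1.76 ± 0.31 for Abhd12b. In the test among systems 12.6% of the 17211 genes passed an adjusted p of 0.05. Since the members were chosen with this contrast known, nothing is read from that share for them.

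Sequencing batch was not used to choose the genes, and both differed among batches. With system in the model, edgeR's quasi-likelihood test gave a Benjamini-Hochberg adjusted p of 0.0120 for Tnnt1 and 2.98e-05 for Abhd12b, and 11.6% of all genes passed in the same test. Batch 2 was higher than batch 1 by 1.69 ± 0.38 (log2, SE) for Tnnt1 and 2.24 ± 0.30 for Abhd12b. Batch 2 was higher than batch 3 by 1.02 ± 0.44 for Tnnt1 and 1.93 ± 0.35 for Abhd12b. The Tnnt1 call was lost without motor replicate 3 (adjusted p = 0.0517) and without prefrontal replicate 3 (adjusted p = 0.123), the only batch 2 sums of their systems, whereas the adjusted p for Abhd12b stayed between 6.68e-06 and 0.000544 when each sum was left out in turn.

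Within each system that spans the batches, the batch 2 sums held the highest Abhd12b values. Auditory neurons had 67.6 to 117 CPM of Abhd12b in batch 2 (2 sums), against 9.50 to 16.9 CPM in batches 1 and 3 (3 sums). Motor neurons had 472 CPM in batch 2 (1 sum), against 177 to 252 CPM in the other batches (4 sums). Prefrontal neurons had 263 CPM in batch 2 (1 sum), against 37.7 to 79.6 CPM (3 sums). In all 3 systems the batch 2 values lay above the others, by mean ratios of 7.52, 2.06 and 4.41. Tnnt1 gave ratios of 1.60, 3.00 and 5.11, and only in auditory neurons did batch 2 (292 to 393 CPM) and the other batches (163 to 298 CPM) overlap. Batch 2 animals were 64 to 81 days old, against 91 to 112 days in batch 1 and 69 to 104 days in batch 3. The part of age in these differences was not tested.

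The batches also differed in the clusters to which their cells were assigned in the authors' clustering over all systems (joint clusters 1 to 9). Of the motor cells, 63.6% lay in joint cluster 2 in batch 2, whereas 84.0% lay in joint cluster 4 in batch 1. Joint cluster 2 held 418 CPM of Tnnt1 and 654 CPM of Abhd12b, and joint cluster 4 held 68.1 and 242 CPM. Of the prefrontal cells, 78.8% lay in joint cluster 7 in batch 2, whereas 71.7% lay in joint cluster 9 in batch 1. All 99 cells of joint cluster 9 were prefrontal cells of batch 1, so batch and cluster cannot be told apart for it. Joint cluster 7 held 62.2 CPM of Tnnt1 and 103 CPM of Abhd12b, and joint cluster 9 held 4.98 and 7.11 CPM. In batch 3, however, 68 of the 80 prefrontal cells also lay in joint cluster 7. That sum held 52.6 and 79.6 CPM, against 221 and 263 CPM in batch 2. The 22 batch 2 prefrontal cells of joint cluster 1 held 2617 of 4498 Tnnt1 and 2283 of 5349 Abhd12b UMIs. The 134 cells of joint cluster 7 held 1142 and 1865. The part of cluster mix in the batch gaps was not tested. Batch gaps were also present within single joint clusters of a system. Auditory cells of joint cluster 5 held 113 CPM of Abhd12b in batch 2, against 13.9 CPM in batch 1 and 14.7 CPM in batch 3. Their Tnnt1 level was 338 CPM in batch 2, against 249 and 253 CPM in batches 1 and 3. Prefrontal cells of joint cluster 7 held 128 CPM of Abhd12b in batch 2, against 39.4 CPM in batch 1 (10 cells) and 33.6 CPM in batch 3. Motor cells of joint cluster 2 held 626 CPM of Abhd12b in batch 2, against 204 CPM in batch 1 (10 cells) and 381 CPM in batch 3. In joint cluster 1 motor cells held 248 CPM in batch 2 and 153 CPM in batch 3. Motor cells of joint cluster 4, however, held 362 CPM of Abhd12b in batch 2 and 371 CPM in batch 3, against 202 CPM in batch 1.

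The share of cells with at least 1 UMI followed the levels. To compare depths, each cell was thinned to 20000 UMIs. Tnnt1 was then found in 81.0 ± 7.95% of somatosensory, 65.3 ± 8.36% of visual, 58.4 ± 7.97% of auditory, 46.2 ± 17.1% of motor and 25.6 ± 15.8% of prefrontal cells (mean ± SD over sums). At full depth these shares were 87.1%, 71.4%, 65.7%, 62.6% and 35.2%. Abhd12b was found in 77.3 ± 3.22% of somatosensory, 60.7 ± 8.03% of motor, 22.7 ± 12.1% of prefrontal, 15.6 ± 8.86% of auditory and 13.2 ± 4.46% of visual cells after thinning, against 84.8%, 72.3%, 31.5%, 24.5% and 17.3% at full depth. Where few cells held a gene, the 10% of cells richest in it held most of its UMIs. The richest 10% held 93.3 ± 7.70% of the Abhd12b UMIs of a visual sum and 91.7 ± 6.78% of those of an auditory sum, but 45.6 ± 3.67% in motor and 32.2 ± 4.37% in somatosensory sums. For Tnnt1 they held 82.1 ± 15.8% in prefrontal sums and 36.3 ± 8.39% in somatosensory sums.

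Among all 1972 cells at full depth, 675 (34.2%) held both genes, 616 (31.2%) Tnnt1 alone, 226 (11.5%) Abhd12b alone and 455 (23.1%) neither. After thinning the shares were 26.1%, 30.0%, 11.6% and 32.4%. Cells with both averaged 65.4 ± 6.20% in somatosensory sums after thinning, 30.1 ± 15.8% in motor (up to 55.2% in replicate 3), 13.1 ± 13.2% in prefrontal, 12.97 ± 10.04% in auditory and 10.4 ± 3.61% in visual sums. On average Tnnt1 alone was the most frequent class in visual (54.9 ± 10.9%) and auditory sums (45.4 ± 7.10%, against 38.9 ± 7.48% with neither gene). Motor neurons were the system with the most cells of Abhd12b alone (30.6 ± 10.3%). In prefrontal sums 64.8 ± 14.2% of cells held neither gene. Abhd12b was found in 21.3% of auditory cells with Tnnt1, against 6.36% of those without. In prefrontal neurons these shares were 41.9% and 13.05%, and in motor neurons 62.4% and 57.2%.

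**Figure D2:**
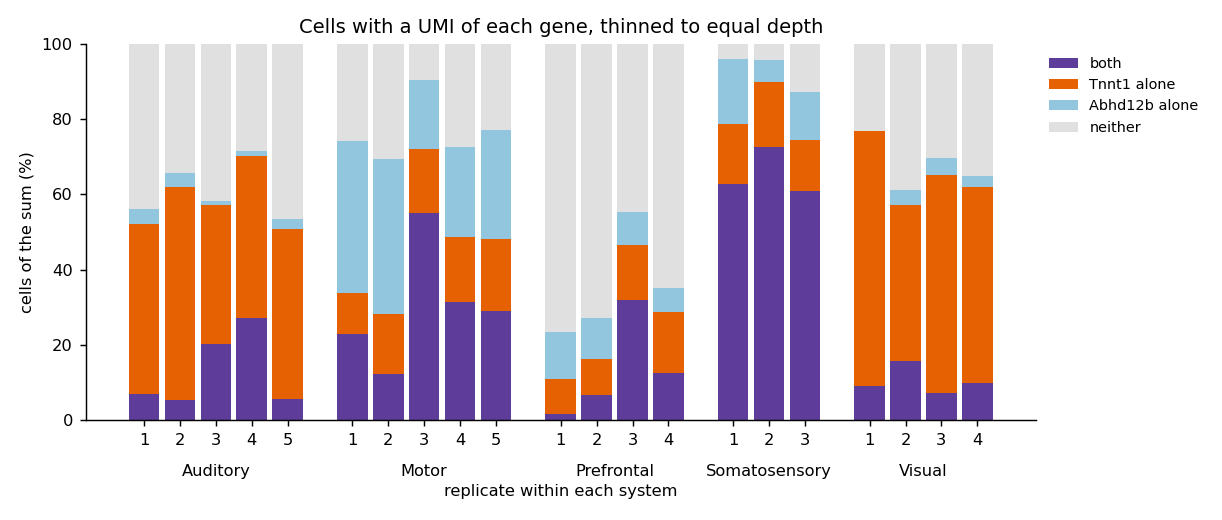
Cells of each sum (%) with a UMI of both genes, of Tnnt1 alone, of Abhd12b alone or of neither, after each cell was thinned to 20000 UMIs; each bar is 1 animal and system. Cells with both fill 61.0% to 72.5% of somatosensory sums, Tnnt1 alone is on average the largest class in auditory and visual sums (in auditory replicates 3 and 5 neither gene is), and prefrontal replicates 1, 2 and 4 hold mostly cells with neither.

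The authors divided each system into 3 or 4 clusters, 17 in all, and both genes ranged widely over them. These clusters were made from the same cells, so their levels are a description. Tnnt1 was highest in visual cluster 1 (983 CPM over 101 cells, 896 to 1078 CPM over 4 sums) and auditory cluster 1 (653 CPM over 101 cells, 339.7 to 751 CPM over 5 sums). In visual cluster 1, 100 of 101 cells held Tnnt1, and in auditory cluster 1, 99 of 101. Abhd12b was at 97.7 and 118 CPM in these clusters and was found in 28 and 45 of their cells. Even so they held 79.7% of the visual and 81.7% of the auditory Abhd12b UMIs, with 23.5% and 26.9% of the cells. The rest of both systems held 7.61 to 9.70 CPM of Abhd12b, while Tnnt1 was still at 223 CPM in visual cluster 2, 149 CPM in visual cluster 3 and 169 CPM in auditory cluster 2.

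Abhd12b without much Tnnt1 marked motor cluster 3 and somatosensory cluster 3, which held 286 and 290.1 CPM of Abhd12b with 45.0 and 55.4 CPM of Tnnt1 (159 and 60 cells). Both genes were high in somatosensory cluster 2 (484 CPM of Tnnt1, 768 CPM of Abhd12b, 132 cells), motor cluster 2 (380.0 and 545 CPM, 152 cells), somatosensory cluster 1 (507 and 420.2 CPM, 90 cells) and prefrontal cluster 1 (555 and 587 CPM, 44 cells). Prefrontal cluster 1, with 11.3% of the prefrontal cells, held 71.1% of the Tnnt1 and 62.8% of the Abhd12b UMIs of its system. Prefrontal replicate 3, from batch 2, held 4498 Tnnt1 and 5349 Abhd12b UMIs, against 81 to 894 and 255 to 842 in the other prefrontal sums. In sums with 5 or more of its cells, this cluster spanned 173 to 611 CPM of Tnnt1 and 353 to 630 CPM of Abhd12b (2 sums). Motor cluster 2 likewise spanned 86.7 to 420 and 161 to 680 CPM (4 sums). Both genes were near 10 CPM in auditory cluster 3 (6.16 and 9.24 CPM), prefrontal cluster 3 (8.04 and 10.6 CPM) and prefrontal cluster 4 (11.6 and 10.3 CPM). In those 3 clusters 9.52% to 23.01% of cells still held a UMI of either gene (1.59% to 10.6% after thinning). Prefrontal cluster 3 had cells from only 2 prefrontal sums. Among visual cells 17.3% held Abhd12b at full depth and 13.2% after thinning.

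**Figure D3:**
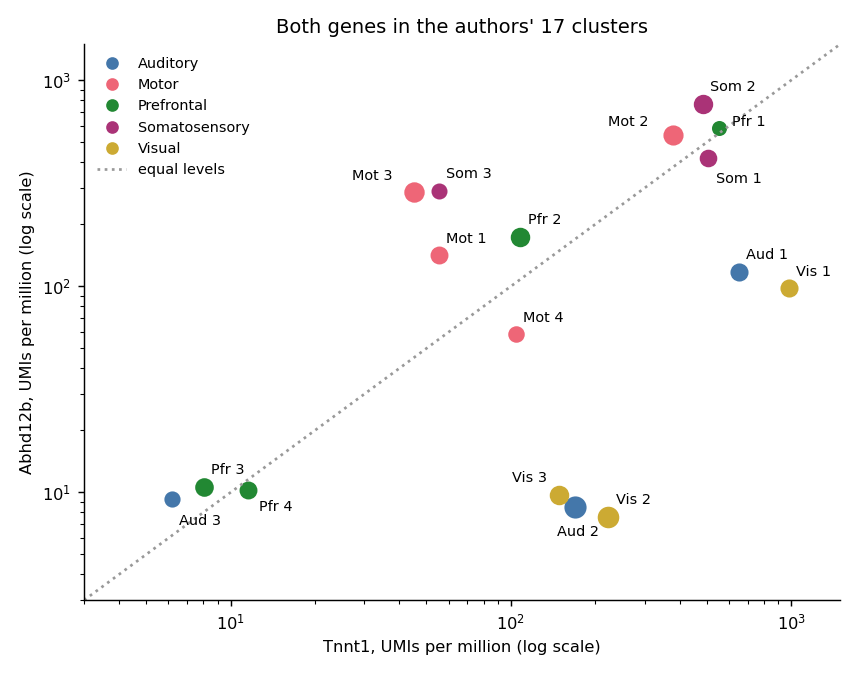
Tnnt1 against Abhd12b in CPM, both on log axes, for the authors' 17 clusters; colour gives the system and point size the number of cells. Visual clusters 1, 2 and 3 and auditory clusters 1 and 2 lie far below the line of equal levels. Motor 3 and somatosensory 3 lie far above it, and 4 motor, prefrontal and somatosensory clusters lie at the upper right.

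Within 1 joint cluster, cells of different systems can be set side by side in the same batch, with no test and with few cells in places. In joint cluster 3, the 313 visual cells held 461 CPM of Tnnt1 and 34.6 CPM of Abhd12b, whereas the 15 motor cells of batch 3, the same batch, held 171 and 206 CPM. In joint cluster 2, the 105 motor cells of batch 2 held 376 CPM of Tnnt1 and 626 CPM of Abhd12b, and the 133 somatosensory cells, also of batch 2, held 515 and 785 CPM. In joint cluster 4 the levels lay close together: the 19 motor cells of batch 2 held 47.7 and 362 CPM and the 66 somatosensory cells 66.9 and 317 CPM. The cell barcodes are plate positions: 372 of the 375 barcodes occurred on 2 or more plates.

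Within single sums the relation of both genes across cells was mostly positive and low. Spearman's rho of CPM across the cells of a sum (64 to 170 cells) had a median of 0.168 over the 21 sums, a range of -0.131 to 0.577, and was above 0 in 17. It is given without a p, because the correlation was part of how the genes were chosen and all cells of a sum share an animal. Prefrontal sums gave the highest values, 0.00597, 0.431, 0.577 and 0.499. Somatosensory sums gave 0.243, -0.0669 and 0.274, and visual sums 0.136, 0.313, 0.0311 and 0.226. Auditory sums gave 0.0533, -0.131, 0.354, 0.271 and 0.168, and motor sums -0.0012, -0.0374, 0.132, 0.215 and 0.107. The median was 0.271 in batch 2 (7 sums) and 0.191 in batch 3 (8 sums), against 0.00239 in batch 1 (6 sums).

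The relation was smaller within clusters. Computed within the authors' clusters of each sum (clusters of 10 or more cells, mean weighted by cells), the median rho was 0.0292. The prefrontal sums lay between -0.0358 and 0.242 by this measure. With each cell thinned to 20000 UMIs, rho was 0.426 and 0.246 in the auditory sums of batch 2 and 0.594 in prefrontal replicate 3, close to the values at full depth. Thinning turned the sign in 3 sums: rho was 0.0196 after thinning, against -0.131 at full depth, in auditory replicate 2, 0.0617, against -0.0669, in somatosensory replicate 2, and -0.00672, against 0.00597, in prefrontal replicate 1. Leaving out each sum in turn moved the median to between 0.152 and 0.191.

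**Figure D4:**
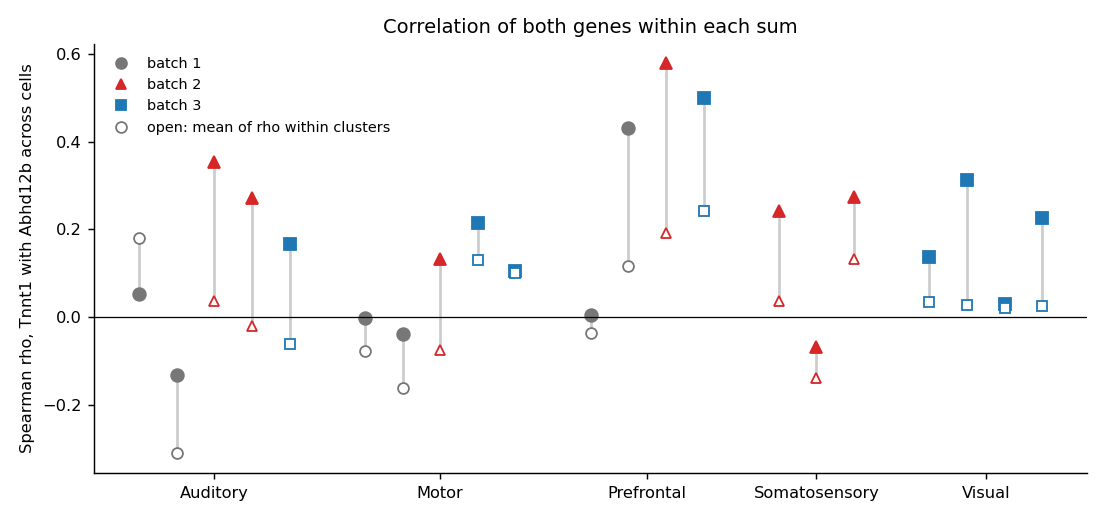
Spearman's rho of Tnnt1 with Abhd12b across the cells of each sum (filled, shape and colour by batch) and the mean of rho within the authors' clusters of the same sum (open), joined by a line. Prefrontal sums reach 0.577, and most open points lie nearer to 0 than their filled ones.

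To see which other genes go with each member in the same animal, the cells in the upper tertile of a sum by Tnnt1 were compared with those in the lower tertile (646 and 810 cells over all 21 sums), with the sum as a block. High cells held 648 CPM of Tnnt1 in the median sum and low cells 0. Abhd12b was then at 172 CPM in the median of the high sums and 15.7 CPM in the median of the low sums, higher in high cells in 17 of 21 sums (log2 2.08 ± 0.44). Median UMIs per cell were 95174.5 in high and 87916.5 in low cells. In edgeR's quasi-likelihood test 6.00% of 12005 genes were higher and 6.19% lower in Tnnt1-high cells. The tertiles differ in cluster: 68.3% of auditory cluster 1, 81.2% of visual cluster 1 and 93.2% of prefrontal cluster 1 were high cells, and 0% of somatosensory cluster 3, so these differences include those between the clusters of a sum.

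The gene lists were written with earlier results of these data known, so their counts are descriptions. More than the background share of the core relay genes rose with Tnnt1. Of the 15 listed ones tested besides the members, 9 rose and 0 fell in edgeR's test, with a median log2 fold of 0.58, against -0.02 over all genes. Prkcd, a protein kinase C delta marker of relay nuclei, rose by 1.66 ± 0.24 (log2, SE; adjusted p = 3.25e-05). Rora, a nuclear receptor of the developing thalamus, rose by 0.99 ± 0.09 (adjusted p = 1.75e-07), and Lef1, a transcription factor of the Wnt pathway, by 0.58 ± 0.14 (adjusted p = 0.00492). Also among the 9 were complexin 1 (Cplx1), higher by 1.14 ± 0.19, the potassium channels Kcna1 by 1.05 ± 0.25 and Kcnc1 by 0.70 ± 0.11, and the heavy neurofilament Nefh by 0.79 ± 0.22 (adjusted p = 0.000132, 0.00571, 0.000125 and 0.0166). The other neurofilament genes had log2 folds of 0.45 ± 0.18 (Nefm, adjusted p = 0.0941) and -0.13 ± 0.11 (Nefl, adjusted p = 0.49). The phospholipase C gene Plcb4 rose by 0.66 ± 0.10 and Ramp3, which encodes a partner of peptide receptors, by 0.50 ± 0.10 (adjusted p = 4.47e-05 and 0.000903). Pvalb, the calcium buffer parvalbumin and a classical core marker, had a log2 fold of 0.46 ± 0.52 (adjusted p = 0.644).

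Matrix, midline and intralaminar genes did not move as 1 group with Tnnt1. Of 6 tested, 3 fell and 2 rose, against 6.19% and 6.00% of all genes, with a median of -1.02. The calcium-binding genes fell: Calb2 (calretinin) by 2.04 ± 0.31, Necab1 by 1.17 ± 0.30 and Calb1 (calbindin) by 0.88 ± 0.15 on the log2 scale (adjusted p = 5.61e-05, 0.00985 and 0.000245). Among those that rose was the peptide gene Cck, by 0.32 ± 0.08 (adjusted p = 0.0067). Oligodendrocyte markers were lower in Tnnt1-high cells, with a summed level of 24.7 CPM in the median sum (5.94 to 645 CPM), against 75.0 CPM in low cells (16.04 to 1085 CPM). Other lists also differed in the median sum: the cortical glutamate neuron markers summed to 45.7 CPM in high and 11.3 CPM in low cells, the astrocyte markers to 225 and 341 CPM, the GABA neuron markers to 0.598 and 4.25 CPM, and the habenula neuron markers to 1.91 and 6.17 CPM. Their part in these differences was not tested.

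The split by Abhd12b gave fewer genes. It put 538 cells in the high and 1158 in the low class, because many low tertiles ended at 0 and took in all cells without a UMI. Tnnt1 was at 345 CPM in the median of the high sums and 187 CPM in the median of the low sums, higher in high cells in 16 of 21 (log2 0.85 ± 0.26). Among 12133 genes, 1.70% (206) were higher and 2.65% (321) lower in Abhd12b-high cells. With spike-in totals the numbers were 14 higher and 348 lower, and the median log2 fold of all genes was -0.18, against -0.08 with TMM factors, so the number of genes higher with Abhd12b depended on the scaling. DESeq2 called 1069 genes in this split, against 527 with edgeR. Oligodendrocyte markers had a summed median of 45.0 CPM in high and 53.7 CPM in low cells, astrocyte markers 263 and 301 CPM, cortical glutamate neuron markers 26.4 and 26.3 CPM, GABA neuron markers 1.99 and 6.50 CPM, and habenula neuron markers 1.67 and 3.00 CPM.

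Of the 15 core relay genes tested, 4 rose and 0 fell with Abhd12b on the main scaling, against 1.70% and 2.65% of all genes. Their median was 0.22. Prkcd rose by 0.80 ± 0.18 (adjusted p = 0.00957), Lef1 by 0.47 ± 0.10 (adjusted p = 0.00441), Rora by 0.46 ± 0.08 (adjusted p = 0.00146) and Plcb4 by 0.41 ± 0.08 (adjusted p = 0.00383). Scaled by spike-ins, Rora passed (adjusted p = 0.0457) and Prkcd, Lef1 and Plcb4 did not (adjusted p = 0.0617, 0.116 and 0.144). Calb2 fell by 1.86 ± 0.34 and Calb1 by 0.64 ± 0.12 (adjusted p = 0.00198 and 0.0024), under either scaling. Pvalb had a log2 fold of -0.53 ± 0.48 (adjusted p = 0.632).

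**Figure D5:**
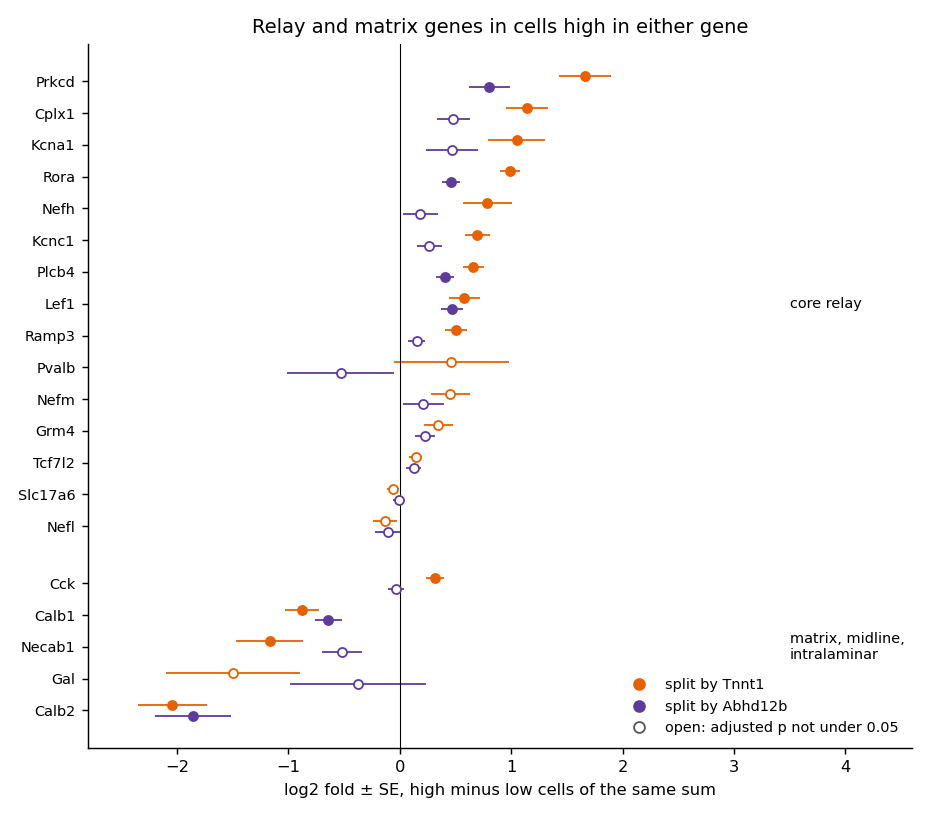
Log2 fold ± SE of listed core relay genes (above) and matrix, midline and intralaminar genes (below) between high and low cells of the same sum, for the split by Tnnt1 (orange) and by Abhd12b (purple); open points did not pass an adjusted p of 0.05. Prkcd leads the relay genes at 1.66 and 0.80, and Calb2 is lowest at -2.04 and -1.86.

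Among genes with a mean of 10 CPM or more, the largest rises in Tnnt1-high cells included signalling and matrix genes. Dhrs3 (a retinal reductase, 2.44 ± 0.67), Smpx (a small muscle protein, 2.34 ± 0.51), Ppp1r1b (the phosphatase inhibitor DARPP-32, 2.33 ± 0.59), Tnc (the matrix protein tenascin C, 2.27 ± 0.54), Shisa6 (an AMPA receptor partner, 2.17 ± 0.38), Car4 (a carbonic anhydrase, 2.08 ± 0.29) and Slc9a3r1 (a scaffold of membrane transporters, 2.05 ± 0.36) were among the 8 largest (log2 ± SE). Their adjusted p-values in edgeR's test were 2.6e-05 to 0.0151. Prph (peripherin, an intermediate filament of peripheral axons) fell by 5.76 ± 0.71. Rgs10, Alcam, Cplx2, Pcdh8, Kcnip1, Kcnc4 and Cbln2 fell by 3.68 to 4.08. Cplx2 is a paralog of Cplx1 and Kcnc4 one of Kcnc1, both of which rose.

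For Abhd12b the largest rises were smaller. Csgalnact1, which starts chondroitin sulfate chains, had 1.31 ± 0.35, Ccdc141 1.07 ± 0.31, the adhesion gene Nectin4 1.02 ± 0.25 and the calcium pump gene Atp2a1 0.98 ± 0.26 (log2 ± SE). Grin2c, an NMDA receptor subunit, had 0.89 ± 0.19, followed by Ret, Clmp and Prkcd at 0.80 to 0.85. All 8 passed with TMM scaling, and 1 of them, Grin2c, with spike-in scaling (adjusted p = 0.0372). Prph, Cplx2, Alcam, Pcdh8, Cbln4, Cygb, Fxyd6 and Plcxd3 fell by 2.33 to 4.25, and all 8 passed with both scalings.

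By mean rho within sums over 8860 genes, Tnnt1 was most like Prkcd (0.486), the calmodulin-binding peptide gene Pcp4 (0.479), Rora (0.470), the calcium pump gene Atp2b1 (0.404), the calcium exchanger gene Slc24a2 (0.373) and Cplx1 (0.363), each above 0 in 21 of 21 sums. It was least like Stmn1 (-0.390), which encodes stathmin. Cpne6 (-0.348) and Calb2 (-0.339) were also among the 4 least alike. Abhd12b was also most like Prkcd (0.248), Pcp4 (0.242) and Rora (0.236), with lower values, followed by Adgrb1 (0.231), Atp2b2 (0.217) and Atp2b1 (0.212). It was least like the tubulin genes Tuba1a (-0.258) and Tubb2a (-0.254), Oaz1 (-0.243) and Eef1a1 (-0.233). The mean rho between the members, 0.181, put Tnnt1 at rank 16 for Abhd12b and Abhd12b at rank 159 for Tnnt1. Across the 21 sums, which share systems, batches and depth, the genes with the highest rho to Tnnt1 were Fbxo9 (0.860), Kcnip3 (0.836), Dck (0.813), Fam19a4 (0.803) and Nrxn3 (0.794), and to Abhd12b Dpp10 (0.905), Dapk2 (0.878), Plekha7 (0.871), Slc25a37 (0.870) and Xylt2 (0.849). Between the members this rho was 0.117, given as a description.

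The other troponin genes were detected in few cells, 12.4% for Tnnc1 and 4.26% for Tnnt2, against 65.5% for Tnnt1. Tnnt2, the cardiac troponin T, held 9.72 to 60.7 CPM in auditory sums and at most 4.02 CPM elsewhere, and differed among systems (adjusted p = 0.000543). Tnnc1, the slow troponin C, held 1.68 to 20.2 CPM, and Tnnt3, Tnni2 and Tnnc2 were detected in 1 to 4 of the 1972 cells. Of the 4 troponin genes tested besides Tnnt1, 1 differed among systems, against 12.6% of all genes. Between motor and prefrontal neurons 0 of them differed, against 5.32% higher and 5.50% lower among all genes. Some other thin filament genes were detected in nearly every cell: Tpm1, a tropomyosin, held 115 to 256 CPM and Tmod2, the neuronal tropomodulin, 161 to 382 CPM. Of 10 such genes tested in Tnnt1-high cells, 0 rose and 3 fell, against 6.00% and 6.19% of all genes. In edgeR's test Nebl fell by 1.26 ± 0.33, Neb by 1.97 ± 0.61 and Tmod2 by 0.33 ± 0.09 on the log2 scale (adjusted p = 0.0105, 0.0325 and 0.00913). Nebl and Neb encode the actin ruler proteins nebulette and nebulin.

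Abhd12, a paralog of Abhd12b, held 188.5 to 498 CPM and Abhd6, a hydrolase of 2-arachidonoylglycerol, 54.8 to 173 CPM over the sums, whereas Abhd12b itself spanned 9.50 to 574 CPM. Of 19 other ABHD genes tested, 2 differed among systems, Abhd3 (adjusted p = 0.0281) and Abhd12 (adjusted p = 0.0499), near the background of 12.6%. Abhd3, a phospholipase, rose by 0.85 ± 0.25 in Tnnt1-high cells (adjusted p = 0.0214), while Abhd12 fell by 0.28 ± 0.07 (adjusted p = 0.00486) and Abhd11 by 0.53 ± 0.16 (adjusted p = 0.0213; 0.0577 with spike-in scaling). Of 17 ABHD genes tested in Abhd12b-high cells, 0 passed in either direction, near the background of 1.70% higher and 2.65% lower. Abhd12 had a log2 fold of -0.20 ± 0.09 there (adjusted p = 0.212) and Abhd6 one of 0.39 ± 0.13 (adjusted p = 0.0924). Of 10 tested genes of 2-arachidonoylglycerol and related lipid signalling, 3 rose (Dagla, Faah and Plcb4) and 1 fell (Abhd12) with Tnnt1, against the 6.00% and 6.19% of all genes. Dagla, the lipase that makes 2-arachidonoylglycerol, rose by 0.52 ± 0.14 and Faah, an amide hydrolase, by 0.47 ± 0.12 in Tnnt1-high cells (adjusted p = 0.012 and 0.00986).

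In motor minus prefrontal neurons 12 of 16 core relay genes were higher and 1, Slc17a6, was lower, against 5.32% and 5.50% of all genes, with a median log2 difference of 1.19. Under spike-in scaling 10 were higher and 0 lower. These counts are descriptions, because the lists were written with earlier results of these data known. Pvalb was higher by 4.66 ± 0.58, Kcna1 by 2.58 ± 0.27, Cplx1 by 1.97 ± 0.24 and Prkcd by 1.79 ± 0.27 (log2, SE; adjusted p = 2.06e-05, 4.3e-06, 1.73e-05 and 0.000136). Of 14 matrix, midline and intralaminar genes, 7 were lower and 1 was higher. Calb2 had a log2 difference of -4.75 ± 0.75 (adjusted p = 0.000218). Of 19 ABHD genes, 2 were higher, Abhd3 by 1.51 ± 0.47 and Abhd17b by 0.71 ± 0.22 (adjusted p = 0.0444 and 0.0406), and neither passed with spike-in scaling (adjusted p = 0.0657 and 0.0706).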

How the data were processed

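Libraries from single cells were made on 26 plates with UMIs and spike-in RNAs; cutadapt 1.16, Picard 1.12 and STAR 2.5.3 with build mm10 are named in the submitters' processing notes. The authors deposited a table of raw UMI counts, with no normalization, and a cell table; no source used here gives the gene annotation or counting rule. The gene sum matched the deposited total in 1972 of 1972 cells. Systems, animals, batches and clusters are the authors'. Counts were summed per animal and system (21 sums, 4317156 to 20322775 UMIs); p-values rest on the spread between sums. One animal identifier in 2 systems was kept as separate sums. No cells were removed and no doublet caller was run, because the sort was manual; an alternative left out 63 cells in which at least 3 markers of another type were detected.

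Tests used edgeR 4.0.16 in R 4.3.3 (TMM, filterByExpr, trended dispersion, glmQLFit, glmQLFTest, Benjamini-Hochberg at 0.05) with batch as covariate on 14 residual degrees of freedom, or, for high and low cells, the sum as block on 20. They were tested on simulated data. DESeq2 1.42.0, RLE and spike-in scaling, other filters and cells, sums per sort date and leaving out each sum were alternatives; spike-in scaling of the counts of genes was added after seeing the data. Named were listed genes, the 6 most and 4 least alike within sums, the 5 most alike across sums, and the 8 largest folds each way at a mean of 10 CPM or more. The 2 genes and all lists were chosen with earlier results of these data known. Gene positions are from GENCODE on GRCm38. Results for some genes that these rules take are left out of the text and plots.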

Additional observations from a re-analysis of the deposited data

Results flagged for a closer look

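Among 24 groups of 4 or 5 sums checked, 2 held a sum far from the others, and chance flags about 1 in 20 groups. Abhd12b in motor replicate 3 was at 472 CPM, against 177 to 252 CPM in the other 4 motor sums. It was the only motor sum from batch 2, and the part of batch was not tested. The share of visual cells with an Abhd12b UMI was 22.1% in visual replicate 2, above the other 3 visual sums.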

How the results depend on the processing

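Of 322 alternative log2 values of the members, 304 moved by less than the SD of log2 CPM over the sums of the same system. This SD includes gaps between batches, so it is a wide limit, and many of the alternatives left out a single sum. The cause of the other shifts was not tested. Without a batch term, Abhd12b was at 1.54 in motor, 2.73 in somatosensory and -2.26 in visual neurons, and Tnnt1 at 1.20 in somatosensory and 1.00 in visual neurons. Values within single batches are relative to only the other systems of that batch, which differ between batches. Abhd12b of motor neurons was then 3.02, 1.04 and 3.12 (batches 1, 2 and 3). Tnnt1 was 2.46 in auditory (batch 1), 0.62 in somatosensory (batch 2) and 1.77 in visual neurons (batch 3). Spike-in scaling gave -0.057 for Tnnt1 in auditory, 0.86 for Tnnt1 in somatosensory and 1.81 for Abhd12b in somatosensory neurons, where the mean of per-cell CPM gave 1.60. Leaving out each sum gave 0.96 to 1.63 for Abhd12b and 0.11 to 0.67 for Tnnt1 in somatosensory neurons, and an adjusted p of 0.00177 to 0.123 for Tnnt1 among batches; Abhd12b stayed under 0.05 in every alternative run.

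Genes differing among systems numbered 3357 with no filter on low counts and 1317 with sums per sort date, against 2173. Motor minus prefrontal gave 1182 with sums per sort date, against 1863. The Abhd12b split gave 824 genes with no filter, 251 for cells with a UMI against cells with none and 1069 with DESeq2, against 527. Leaving out each sum kept these counts within 1.5 times. The median rho stayed between 0.0292 and 0.191. No paired analysis was possible because replicate numbers do not pair sums across systems; the high and low cells were compared with the sum as block. The shares fell with thinning: the motor cells with Tnnt1 went to 46.2%, against 62.6% at full depth. Of 10 shares, 6 moved by less than their SD over sums, and the order of the systems stayed the same for both genes.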
